A study of Mus musculus with 24 samples.

Results

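The mRNAs of 6 metabotropic glutamate receptors were examined in mouse hippocampus: Grm5 of group I, Grm2 and Grm3 of group II, and Grm4, Grm7 and Grm8 of group III. They are the rows of the deposited count table whose Ensembl identifiers belong to these genes, 6 of 55471 genes in all, and other genes of the family were not analysed here. All 6 passed the expression filter in every comparison.

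Metabotropic glutamate receptors are G protein-coupled receptors that adjust neuronal excitability and transmitter release over a slower time scale than glutamate-gated ion channels. Group I receptors sit mainly next to the postsynaptic density, couple to Gq/11 and phospholipase C, and are tethered by Homer and Shank proteins. Group II and group III receptors couple to Gi/o and lower cAMP. In the hippocampus the product of Grm2 is found on mossy fibers, that of Grm3 in neurons and astrocytes, and those of Grm4, Grm7 and Grm8 mainly in presynaptic terminals.

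Hippocampal RNA came from 12 individual mice of 3 to 6 months, 3 in each of 4 groups, labelled C57BL/6 (C57BL/6J in the study's methods). CBP-ifKOs carry a floxed Crebbp gene, which encodes the histone acetyltransferase CBP, and a tamoxifen-inducible Camk2a-creERT2 transgene. Control littermates lack the transgene, and both genotypes received tamoxifen (5 administrations at 20 mg/mL). One pair of genotypes lived in a standard cage (SC) and the other pair in environmental enrichment (EE), and the study's methods state that enrichment experiments used females. The driver is active in excitatory neurons of the forebrain, so other hippocampal cells keep CBP, and the recombined gene still yields a truncated protein. Its transcript checks the labels. Crebbp was 73.9, 81.9 and 70.7 CPM in SC controls and 50.6, 51.6 and 50.0 CPM in SC CBP-ifKOs, and 72.3, 77.1 and 69.6 CPM in EE controls against 44.5, 48.3 and 46.7 CPM in EE CBP-ifKOs. CPM are read counts scaled to the library total and normalized by the trimmed mean of M values (TMM). The log2 fold change of Crebbp was -0.58 in SC (adjusted p = 5.42e-04) and -0.64 in EE (adjusted p = 4.07e-04), with edgeR.

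Library totals ranged from 26874015 to 27971488 counts in the 6 control libraries and from 28582210 to 37448388 in the 6 CBP-ifKO libraries. None of 148570 nonzero CBP-ifKO counts was odd, against 86334 of 158233 control counts. Whether CBP-ifKO reads were counted in duplicate was not tested; halved, these libraries would total 14291105 to 18724194 counts, with their raw receptor counts lower by the same factor and CPM, a ratio to the total, not changed by it. After halving the CBP-ifKO counts, 0, 1 and 3 receptors passed the test in SC, in EE and averaged over housing, as many as with the deposited counts, beside 958, 815 and 3055 of all genes. After halving and thinning all libraries to equal totals, 0, 1 and 2 passed, beside 767, 677 and 2445 genes. The thinning was 1 random draw of reads, which left 14291105 counts in each library, controls included, and values after it hold for that draw. The summed level of 6 choroid plexus markers was 1253 CPM in EE control replicate 1 and between 35.2 and 62.7 CPM in the other libraries. Values without that mouse are given below where a receptor passed the test.

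The receptor genes lie on 5 chromosomes of GRCm38 and all are protein coding. Grm5 occupies chr7:87584168-88134907 on the plus strand, Grm2 chr9:106643095-106656082 on the minus strand and Grm3 chr5:9485541-9725170 on the minus strand. Grm4 lies at chr17:27422387-27521403 on the minus strand, Grm7 at chr6:110645581-111567230 on the plus strand and Grm8 at chr6:27275119-28135178 on the minus strand. Exons of Grm2 share bases with Gm28111 and exons of Grm7 with Gm20387, both on the opposite strand. The strand setting of the counting was not given in the sources used here, so reads of such partners cannot be told apart. Gm28111 held between 0 and 6 counts per library against 1112 to 1734 for Grm2, and Gm20387 between 31 and 52 counts against 1689 to 2358 for Grm7. Exons of Grm8 contain Mir592 on the same strand, which had 0 counts in every library.

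Promoter sequences are shown for Grm2, Grm3 and Grm7, the receptors whose genotype difference averaged over housing passed the test. Each is the 250 bases before a RefSeq start (GRCm38.p6), read 5′ to 3′ on the strand of the gene, with GC boxes (GGGCGG on either strand), a sequence bound by Sp family factors, in capitals. They were taken from chr9:106656110-106656359 (minus), chr5:9725353-9725602 (minus) and chr6:110645262-110645511 (plus, the first of 2 Grm7 starts).
Grm2: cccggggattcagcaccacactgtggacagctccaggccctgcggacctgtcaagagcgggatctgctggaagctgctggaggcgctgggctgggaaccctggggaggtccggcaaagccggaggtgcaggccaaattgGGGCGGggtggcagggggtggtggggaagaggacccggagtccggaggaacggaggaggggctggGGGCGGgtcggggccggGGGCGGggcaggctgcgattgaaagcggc
Grm3: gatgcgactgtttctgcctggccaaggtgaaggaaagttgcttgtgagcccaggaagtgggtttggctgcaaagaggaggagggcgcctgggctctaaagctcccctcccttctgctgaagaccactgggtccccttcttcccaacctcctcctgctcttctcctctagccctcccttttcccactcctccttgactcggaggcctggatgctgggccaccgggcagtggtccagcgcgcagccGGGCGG
Grm7: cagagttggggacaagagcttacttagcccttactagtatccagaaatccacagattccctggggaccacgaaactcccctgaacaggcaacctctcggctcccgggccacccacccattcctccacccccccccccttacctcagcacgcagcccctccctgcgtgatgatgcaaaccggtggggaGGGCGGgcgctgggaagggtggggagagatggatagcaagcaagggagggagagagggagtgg
The Grm2 window held 3 GC boxes and the Grm3 and Grm7 windows 1 each. The 3 windows of Grm8, which did not pass the test and are not shown, held 1, 0 and 0. Of 32851 promoter windows of this length, 32.7% held at least 1. The cAMP response element TGACGTCA, the sequence recognized by CREB, for which CBP is a coactivator, was in none of the 7 windows of the 4 receptor genes with an entry (Grm2, Grm3, Grm7 and Grm8) and in 1.55% of all windows. Its shorter form TGACG, which every full element also contains, was in 1 of 3 Grm8 windows and in 17.8% of all windows. The G and C content was 71.2% for Grm2, 62.4% for Grm3 and 62.0% for the first Grm7 window, and the median of all windows was 52.4%. Both strands were searched.

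Grm5 was the most abundant receptor mRNA. For comparison between genes, levels were divided by the exonic length in the deposited table (RPKM, here CPM on the TMM scale per kilobase). This length covers the exons of all annotated transcripts of a gene. It was 5886 bases for Grm7 and 9898 for Grm8, whose longest transcripts have 4210 and 4799 bases. For Grm3, with 1 transcript, it was 3049 bases. The order, sums and shares below hold for this length and could differ with that of the longest transcript, which was not used. In SC controls Grm5 was at 32.5 ± 0.61 RPKM (SD, n = 3), Grm3 at 15.6 ± 1.06 RPKM, Grm7 at 11.1 ± 0.38 RPKM, Grm2 at 10.7 ± 2.30 RPKM, Grm4 at 2.04 ± 0.43 RPKM and Grm8 at 1.02 ± 0.08 RPKM. The ranges of Grm7 and Grm2 overlapped in each of the 4 groups, and their order turned in EE controls, where Grm2 was at 11.8 RPKM and Grm7 at 10.9 RPKM. Grm3 stood above both in 3 groups. In EE CBP-ifKOs, where Grm3 averaged 10.7 RPKM, its range of 9.73 to 11.9 RPKM overlapped that of Grm7, from 9.76 to 10.4 RPKM. Grm4 and Grm8 stood below the other 4 receptors and apart from each other in every group. Added up, the 6 mRNAs reached 73.0 ± 2.89 RPKM in SC controls, 64.3 ± 0.72 RPKM in SC CBP-ifKOs, 73.2 ± 1.07 RPKM in EE controls and 60.9 ± 2.13 RPKM in EE CBP-ifKOs. Grm5 made up 44.6% of the sum in SC controls and 46.6% in EE CBP-ifKOs, whereas the share of Grm3 was 21.4% and 17.5% in the same groups.

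**Figure D1:**
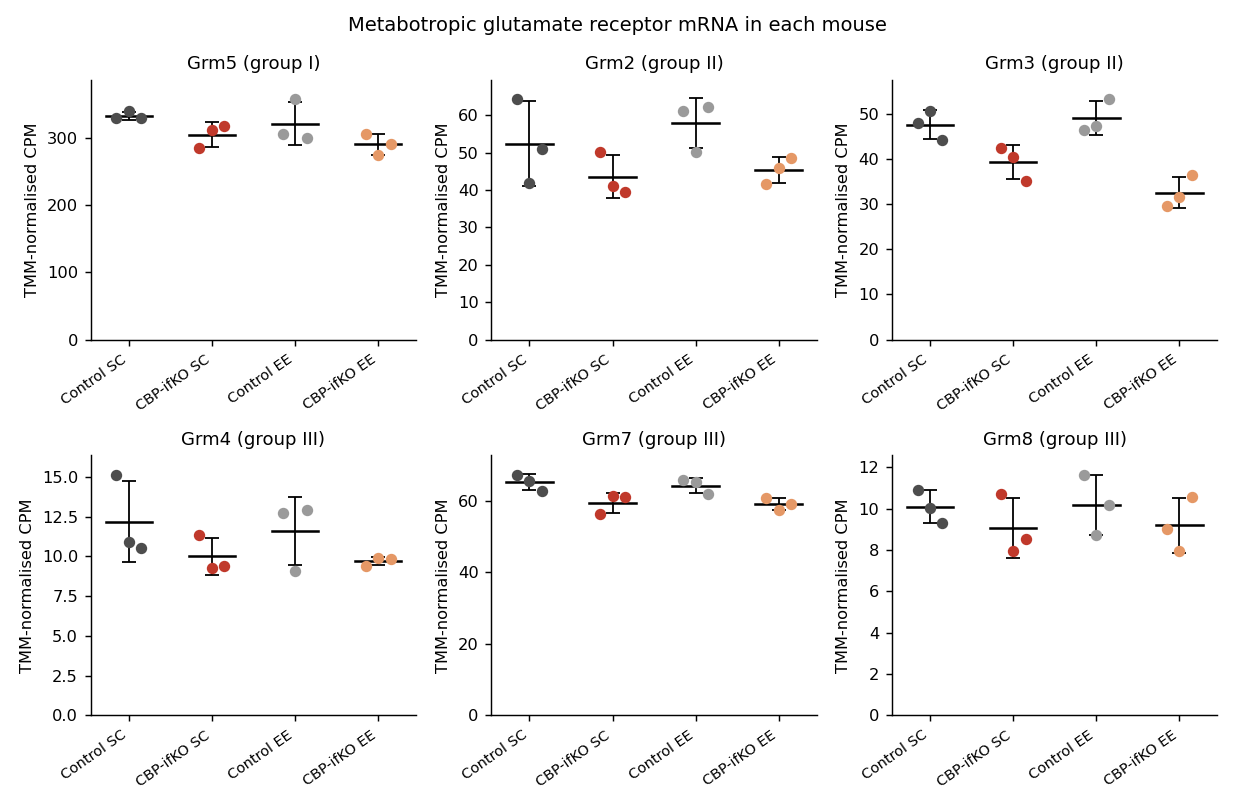
Each panel plots one receptor mRNA in TMM-normalised CPM on a linear axis from 0, with 1 point per mouse, a line at the mean and bars of 1 SD for the 4 groups (n = 3). Grm3 was between 44.1 and 53.3 CPM in controls and between 29.7 and 42.5 CPM in CBP-ifKOs, with no overlap between genotypes, whereas the control values of Grm4 spread from 9.11 to 15.1 CPM around those of CBP-ifKOs.

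The comparison between genotypes sets CBP-ifKOs, which lost CBP in adult excitatory neurons, against control littermates in each housing condition. All CBP-ifKOs carry the creERT2 transgene and all controls lack it, so CBP loss and the transgene cannot be told apart here. The even counts go with genotype in the same way. Grm3 was the receptor with the lowest p in each genotype comparison. It was lower in CBP-ifKOs in EE and averaged over housing. Grm2 and Grm7 passed the test averaged over housing, where it used all 12 mice, and their fold changes in SC and EE were also below 0 but did not pass in edgeR with the expression filter, 6 mice and no replicate block. Grm2 passed under some other settings. All tests were edgeR's quasi-likelihood test with Benjamini-Hochberg adjustment over all genes tested and a threshold of 0.05. None of the 6 receptors passed in SC, where 5.52% of 17532 genes did (4.02% lower and 1.51% higher). In EE 1 passed, beside 4.57% of 17625 genes (3.53% lower and 1.03% higher), and averaged over housing 3 passed, beside 16.9% of 18251 genes (10.3% lower and 6.64% higher). At an unadjusted p under 0.05 the receptors numbered 3, 2 and 5, beside 20.5%, 19.6% and 29.9% of all genes, and DESeq2 called 1, 2 and 4 receptors beside 1300, 1296 and 3366 genes in all. The 6 fold changes were below 0 in each of these comparisons, as were 50.3%, 47% and 49.3% of those of all genes. Their median log2 fold change was -0.21 in SC and -0.19 in EE, beside -0.0019 and 0.014 for all genes. SC and EE comparisons used separate mice, and the averaged comparison used both sets.

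Group II receptors gave the widest genotype differences in EE. Grm3, which was at 48.0, 50.5 and 44.1 CPM in SC controls, was at 42.5, 40.4 and 35.2 CPM in SC CBP-ifKOs. In EE it was at 46.4, 47.3 and 53.3 CPM in controls and at 29.7, 31.5 and 36.4 CPM in CBP-ifKOs. Each CBP-ifKO mouse was below each control mouse of its housing. The log2 fold change was -0.28 in SC (SE 0.081, adjusted p = 0.0741), -0.58 in EE (SE 0.088, adjusted p = 0.00480) and -0.43 averaged over housing (SE 0.063, adjusted p = 2.35e-04), with edgeR. The EE difference corresponds to 0.668 of the control level, with a 95% interval of the log2 fold change from -0.78 to -0.39. Grm3 passed the test in each of the fits that left out 1 mouse, 6 in EE (highest adjusted p = 0.0292) and 12 averaged over housing (highest adjusted p = 9.79e-04). Without EE control replicate 1 it was -0.62 in EE (adjusted p = 0.00417) and -0.45 averaged (adjusted p = 3.24e-04). In SC it passed under some settings: the adjusted p was 0.0334 with DESeq2. With edgeR it was 0.0101 without a filter on low counts and 0.0317 with the replicate number as a block. Grm3 is on the study's list of genes lowered in CBP-ifKOs, chosen partly on these SC mice, so its place there is not independent evidence of the direction.

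Grm2 was at 64.4, 42.0 and 51.0 CPM in SC controls and 50.3, 41.1 and 39.5 CPM in SC CBP-ifKOs. In EE the controls were at 61.1, 50.3 and 62.3 CPM and the CBP-ifKOs at 41.6, 46.0 and 48.5 CPM. The genotypes overlapped in SC and did not in EE. The spread among SC controls was a CV of 21.5%, against 6.79% for Grm3. The log2 fold change was -0.27 in SC (SE 0.133, adjusted p = 0.288), -0.34 in EE (SE 0.091, adjusted p = 0.0564) and -0.31 averaged over housing (SE 0.092, adjusted p = 0.0301). The averaged call was lost in 8 of 12 fits that left out 1 mouse, with adjusted p between 0.0530 and 0.0800. It was kept without SC control replicate 2, SC CBP-ifKO replicate 1, EE control replicate 2 or EE CBP-ifKO replicate 3. Without EE control replicate 1 the difference was -0.29 (adjusted p = 0.0609). SC control replicate 2 was the lowest SC control, and without it the SC difference was -0.40 (adjusted p = 0.0432). Without SC control replicate 1, the highest, it was -0.09 (adjusted p = 0.744). In EE, leaving out control replicate 2 gave -0.44 (adjusted p = 0.00819), and DESeq2 gave -0.35 (adjusted p = 0.00570). With edgeR, Grm2 also passed without a filter on low counts in SC (adjusted p = 0.0372) and EE (adjusted p = 1.12e-04). In EE it passed with a filter of 1 CPM in 3 mice (adjusted p = 0.0472) and with the replicate number as a block (adjusted p = 0.0286).

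Grm5, the group I receptor of this set, was at 329, 340.1 and 329.5 CPM in SC controls and at 284, 312 and 318 CPM in SC CBP-ifKOs. In EE it was at 307, 358 and 299.7 CPM in controls and at 306, 275 and 292 CPM in CBP-ifKOs. The SC genotypes did not overlap, whereas in EE 1 CBP-ifKO mouse was above the lowest control. The log2 fold change was -0.13 in SC (adjusted p = 0.217), -0.13 in EE (adjusted p = 0.361) and -0.14 averaged over housing (SE 0.048, adjusted p = 0.0664), none past the threshold in edgeR with the expression filter and no mouse left out. The 95% interval of the averaged difference ran from -0.24 to -0.033. It passed with DESeq2 (adjusted p = 0.0426) and, with edgeR, without a filter (adjusted p = 0.0125) and without EE control replicate 3 (adjusted p = 0.0438). It did not pass in the other 11 leave-one-out fits, where the adjusted p reached 0.164 without SC CBP-ifKO replicate 1. Without that mouse the SC difference was -0.078 (adjusted p = 0.543). Without EE control replicate 2, the highest EE control, the EE difference was -0.055 (adjusted p = 0.661) and the averaged difference -0.093 (adjusted p = 0.129).

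Grm7, of group III, was at 67.4, 65.5 and 62.9 CPM in SC controls and 56.3, 61.3 and 61.0 CPM in SC CBP-ifKOs. In EE it was at 65.8, 65.2 and 61.8 CPM in controls and 60.9, 57.4 and 59.0 CPM in CBP-ifKOs, with no overlap in either housing. The log2 fold change was -0.13 in SC (adjusted p = 0.227), -0.11 in EE (adjusted p = 0.334) and -0.13 averaged over housing (SE 0.039, adjusted p = 0.0371). The averaged call was lost in 9 of 12 fits that left out 1 mouse, with adjusted p between 0.0519 and 0.0993. It was kept without SC CBP-ifKO replicate 2, EE control replicate 3 or EE CBP-ifKO replicate 1, and was lost without EE control replicate 1 (adjusted p = 0.0894). It was also lost without a filter on low counts (adjusted p = 0.0572) and after halving and thinning to equal totals (adjusted p = 0.0844).

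Grm4 was at 15.1, 10.9 and 10.6 CPM in SC controls and 11.4, 9.28 and 9.38 CPM in SC CBP-ifKOs, and at 12.7, 9.11 and 12.9 CPM against 9.40, 9.93 and 9.81 CPM in EE. EE control replicate 2 was below all 3 EE CBP-ifKOs. Averaged over housing the log2 fold change was -0.27 (SE 0.107, adjusted p = 0.0966), and -0.34 without that mouse (adjusted p = 0.0221). Without SC control replicate 1, the highest of all mice, it was -0.18 (adjusted p = 0.256). Without a filter on low counts the averaged adjusted p was 0.0139, and after halving and thinning it was 0.170. Grm8 was at 10.9, 10.05 and 9.33 CPM in SC controls and 10.7, 7.96 and 8.53 CPM in SC CBP-ifKOs, and at 11.6, 8.73 and 10.2 CPM against 9.04, 7.95 and 10.6 CPM in EE. The genotypes overlapped for both genes in both housings. The averaged difference of Grm8 was -0.15 (SE 0.099, adjusted p = 0.336), with a 95% interval from -0.36 to 0.059. Grm4 and Grm8 had between 226 and 408 counts in a library, the fewest of the 6, and a difference of the size found for Grm7 lay within their intervals.

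Values of 3 of 6 receptors did not overlap between genotypes in SC (Grm5, Grm3 and Grm7) and of 3 of 6 in EE (Grm2, Grm3 and Grm7), each time with CBP-ifKOs lower. The same held for 13.8% and 13.9% of all genes tested in SC and EE, and 12.1% and 11.4% did not overlap with CBP-ifKOs higher.

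**Figure D2:**
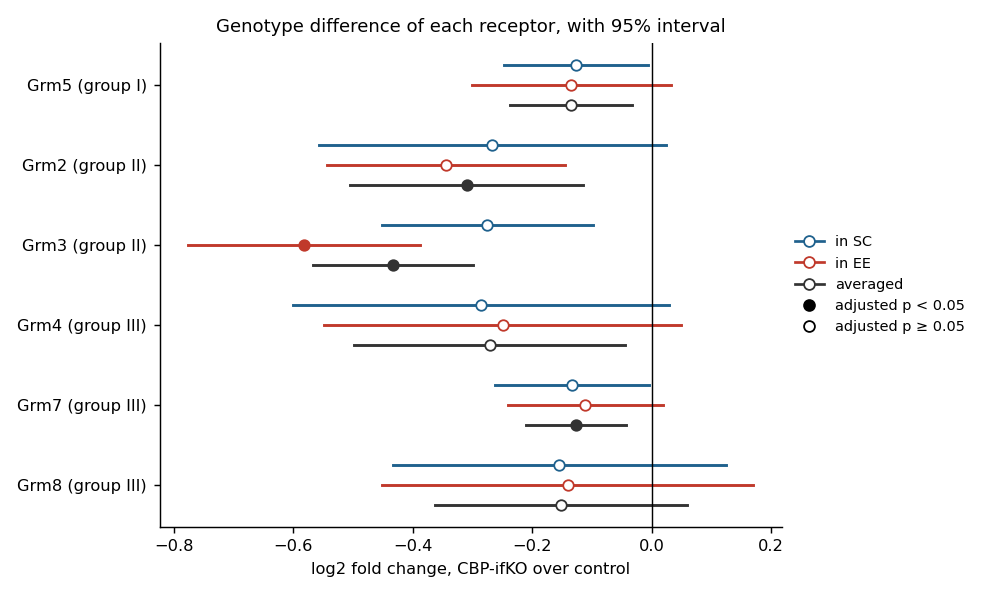
Points are log2 fold changes of CBP-ifKOs over control littermates for each receptor in SC, in EE and averaged over housing, lines are 95% intervals from edgeR, and filled points passed the adjusted p threshold of 0.05. All points lie below 0, from -0.58 for Grm3 in EE to -0.11 for Grm7 in EE, and the intervals include 0 for Grm8 in each comparison, Grm4 in SC and in EE, Grm2 in SC, and Grm5 and Grm7 in EE.

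Genes around the receptors were described as 4 lists, which were written with earlier results of these data known. Among all genes tested, 10.3% were lower and 6.64% higher in CBP-ifKOs averaged over housing. In SC these shares were 4.02% and 1.51%, and in EE 3.53% and 1.03%. Of 16 genes of group I coupling and scaffold (G proteins, phospholipases, kinases, Homer and Shank proteins), 8 were lower in CBP-ifKOs averaged over housing, none was higher, and the median log2 fold change was -0.19. Shank3, a scaffold of the postsynaptic density, gave -0.38 (adjusted p = 4.25e-05), Dagla, which synthesizes the endocannabinoid 2-arachidonoylglycerol, -0.35 (adjusted p = 9.34e-04), Shank1 -0.28 (adjusted p = 0.00120), and Gnaq, the alpha subunit of Gq, -0.23 (adjusted p = 0.00160), all with edgeR. In SC, Shank3 and Shank1 passed, and in EE Shank3, Dagla, Gnaq, Shank2 and Shank1 did. Shank3 passed in each leave-one-out fit in SC and averaged over housing, and in EE was lost without CBP-ifKO replicate 3 (adjusted p = 0.0691), a mouse without which no gene of this list passed in EE. In EE Dagla was also lost without control replicate 3, and Gnaq and Shank2 were lost in 4 and 5 of 6 leave-one-out fits, Gnaq also after halving and thinning (adjusted p = 0.0841). Dagla, Shank1 and Gnaq passed in all 12 averaged leave-one-out fits. In SC Shank1 was lost without control replicate 1, CBP-ifKO replicate 2 or CBP-ifKO replicate 3, and after halving and thinning (adjusted p = 0.0533).

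Of 11 genes of group II and III coupling (Gi/o proteins, adenylyl cyclases and G protein-gated potassium channels), 4 were lower averaged over housing, beside 10.3% of all genes, none was higher, and the median was -0.12. They were Gnaz (-0.21, adjusted p = 0.00262) and Gnao1 (-0.15, adjusted p = 0.0128), both alpha subunits of the Gi/o class, the cyclase Adcy1 (-0.31, adjusted p = 0.0160) and the channel subunit Kcnj9 (-0.19, adjusted p = 0.0212). Kcnj9 was lost in 5 of 12 leave-one-out fits, without SC control replicate 1, SC CBP-ifKO replicates 2 or 3, or EE control replicates 1 or 3. Gnai1, Gnai2 and Gnai3 were at -0.08, 0.08 and 0.08 and did not pass. None passed in SC, where 3 had an unadjusted p under 0.05, beside 20.5% of all genes, and DESeq2 called 0. Adcy1, Gnaz and Gnao1 passed in EE, where 3.53% of all genes were lower. In EE, each of these 3 calls was lost in 5 of 6 leave-one-out fits, and that of Gnaz also after halving and thinning (adjusted p = 0.0817).

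Of 4 partners of presynaptic receptors, 3 were lower averaged over housing, beside 10.3% of all genes. Elfn1 and Elfn2, postsynaptic adhesion proteins that bind group III receptors across the synapse, gave -0.30 (adjusted p = 4.41e-04) and -0.37 (adjusted p = 5.07e-05). Elfn2 was at 239 ± 9.07 CPM in SC controls and 193 ± 6.11 CPM in SC CBP-ifKOs, and at 227 ± 12.4 CPM against 168 ± 14.8 CPM in EE. The PDZ protein Grip1 gave -0.20 (adjusted p = 0.0178), a call lost without SC control replicate 3 (adjusted p = 0.0591), and Pick1, which binds the product of Grm7, was at 0.05 (adjusted p = 0.587). Elfn2 passed in SC in every leave-one-out fit and in EE in all but the one without CBP-ifKO replicate 3 (adjusted p = 0.0618), and Elfn1 passed in EE (-0.31, adjusted p = 0.0311) but was lost there in 5 of 6 leave-one-out fits. In SC Elfn1 had an adjusted p of 0.0557.

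Of 8 genes of glutamate supply and clearance, 3 were lower averaged over housing and 1 was higher, beside 10.3% and 6.64% of all genes. The glial transporters Slc1a3 and Slc1a2 gave -0.21 (adjusted p = 0.0173) and -0.15 (adjusted p = 0.0484), glutamine synthetase Glul -0.14 (adjusted p = 0.0447) and the vesicular transporter Slc17a6 0.47 (adjusted p = 0.0274). Slc1a3 passed in all 12 averaged leave-one-out fits, Slc1a2 in 3 and Glul in 2. With a filter of 1 CPM in 3 mice Slc1a2 (adjusted p = 0.0529) and Glul (adjusted p = 0.0578) were lost, and Glul also with DESeq2 size factors in edgeR. Slc17a6 was lost without SC control replicate 3, SC CBP-ifKO replicate 1 or EE CBP-ifKO replicate 3. Slc17a7, the main vesicular transporter of hippocampal pyramidal cells, was at 0.0064 (adjusted p = 0.941). Glul passed in SC (-0.20, adjusted p = 0.0271), where the call was lost without control replicate 3 or any 1 CBP-ifKO mouse and with 12 mice in the fit (adjusted p = 0.0795). No gene of the list passed in EE. There 4 had an unadjusted p under 0.05, beside 19.6% of all genes, and DESeq2 called 2, beside 1296 genes in all.

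**Figure D3:**
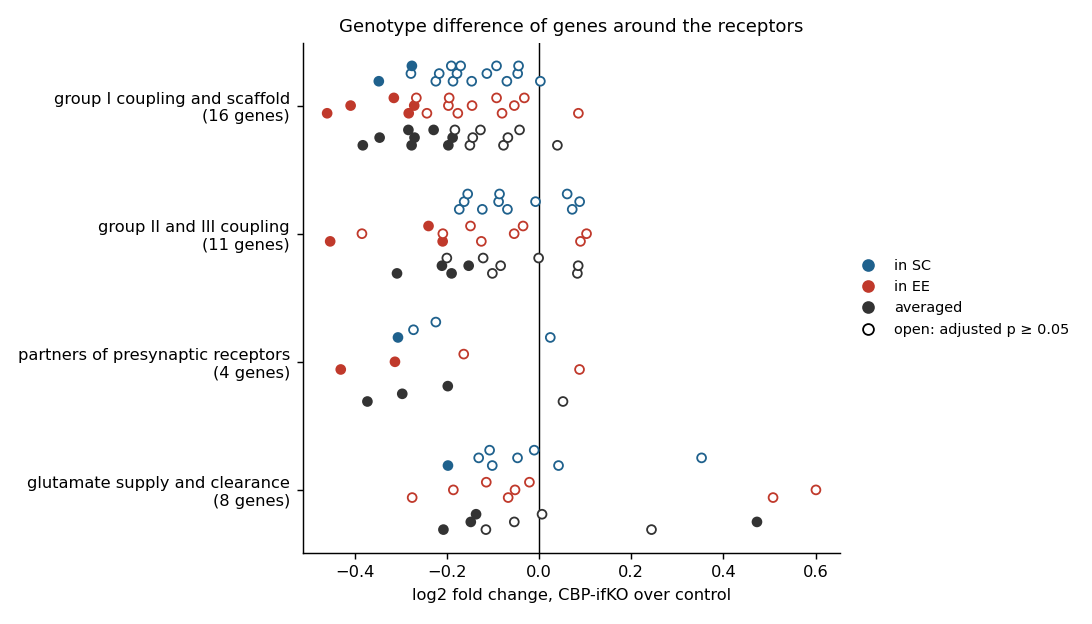
Each point is the log2 fold change of CBP-ifKOs over control littermates for one gene of the 4 lists in SC, in EE or averaged over housing, and filled points passed the adjusted p threshold of 0.05. In the group I list 15 of 16 points lie below 0 in each comparison, whereas the glutamate supply list spans -0.21 to 0.47 averaged over housing.

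Markers of several cell types differed between genotypes beside the receptors. Averaged over housing, 10.3% of all genes were lower in CBP-ifKOs and 6.64% higher. Of 6 dentate granule cell markers, 5 were lower averaged over housing (C1ql2, Tdo2, Il16, Glp1r and Dsp), and their summed level was 249 to 261 CPM in SC controls against 189 to 210.3 CPM in SC CBP-ifKOs and 232 to 277 CPM against 157 to 183 CPM in EE. Of 6 CA pyramidal cell markers 3 were lower (Fibcd1, Wfs1 and Mpped1), with sums of 1428 to 1548 CPM against 1215 to 1316 CPM in SC and 1401 to 1455 CPM against 1080 to 1205 CPM in EE. Of 7 astrocyte markers, Sox9 and Slc1a3 were lower averaged over housing and none passed in SC or EE alone (DESeq2 called 0 and 2). Slc1a3 is also on the glutamate supply list. The astrocyte sums were 1629 to 1802 CPM against 1556 to 1586 CPM in SC and 1595 to 1628 CPM against 1428 to 1487 CPM in EE. Slc1a3 made up most of the EE difference, at a mean of 753.3 CPM in EE controls and 618.4 CPM in EE CBP-ifKOs, whereas Gfap was at 303.4 and 303.3 CPM and Fgfr3 at 105 and 114 CPM. The median log2 fold change of the 7 markers was -0.06 averaged over housing. All 4 oligodendrocyte precursor markers (Gpr17, C1ql1, Cspg4 and Pdgfra) were lower, with sums of 129 to 148 CPM against 101 to 113 CPM in SC and 130 to 138 CPM against 107 to 118 CPM in EE. The part of these differences in the levels of Grm2, Grm3 and the other receptors was not tested. In bulk tissue, fewer cells of a type and less RNA per cell cannot be told apart.

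Among the remaining markers, averaged over housing, where 16.9% of all genes were called, 2 of 5 excitatory neuron markers were called (Nrgn and Neurod6, both lower), 2 of 5 microglial (Cx3cr1 and Csf1r, lower), 1 of 5 endothelial (Kdr, lower), 0 of 6 oligodendrocyte, and 2 of 7 interneuron markers (Sst lower, Vip higher). The choroid plexus marker Ttr and the thalamus marker Prkcd were lower. Of these calls, Vip, Csf1r, Ttr and Prkcd were lost in 6 or more of 12 leave-one-out fits, and Cx3cr1 without SC CBP-ifKO replicate 3. The median log2 fold change of the 5 excitatory neuron markers was -0.036 averaged over housing, 0.034 in SC and -0.099 in EE. Endothelial sums were 212 to 216 CPM in controls and 177 to 193 CPM in CBP-ifKOs in SC. In EE they were 192 to 210 CPM in controls and 198 to 204 CPM in CBP-ifKOs. The summed level of 5 thalamus markers was 41.7 to 55.6 CPM in controls and 40.6 to 45.1 CPM in CBP-ifKOs in SC, and 44.4 to 51.4 CPM against 41.6 to 42.1 CPM in EE.

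The comparison of EE with SC addresses the response to enrichment within each genotype. No receptor passed the test in controls, where 0% of 18251 genes did, or in CBP-ifKOs, where 0.011% did. At an unadjusted p under 0.05, 0 and 1 receptors passed, as did 4.21% and 8.59% of all genes, and DESeq2 also called 0 receptors in both, with 15 and 54 genes in all. Averaged over genotype, 0 of 6 receptors passed beside 0.164% of all genes, with 0 receptors and 9.44% of all genes at an unadjusted p under 0.05 and 0 receptors called by DESeq2. No gene of the 4 pathway lists passed in these comparisons with edgeR, and DESeq2 called 1 gene of glutamate supply in controls and 1 averaged over genotype. The astrocyte marker Sox9 was lower in EE averaged over genotype (log2 difference -0.40, adjusted p = 0.0103 with edgeR).

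Grm3 was the receptor at an unadjusted p under 0.05 in CBP-ifKOs. From the values above, the highest EE CBP-ifKO mouse (36.4 CPM) was between the lowest (35.2 CPM) and the middle (40.4 CPM) SC CBP-ifKO mouse. The log2 difference of EE from SC was -0.27 in CBP-ifKOs (SE 0.089, adjusted p = 0.446) and 0.04 in controls (SE 0.089, adjusted p = 0.999). The interaction, the housing difference in CBP-ifKOs minus that in controls, was -0.32 (SE 0.126, unadjusted p = 0.0237, adjusted p = 0.9998 with edgeR), with a 95% interval from -0.58 to -0.048. The wider genotype difference of Grm3 in EE than in SC therefore did not pass the test of the difference itself. Over leave-one-out fits the interaction ranged from -0.40 to -0.25, and the lowest adjusted p was 0.894. It is one of 6 receptors and 18251 genes examined. The interaction passed for 0 receptors (0% of all genes) and was at an unadjusted p under 0.05 for 1 receptor and 3.15% of all genes, and DESeq2 called 0 genes.

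For the other 5 receptors the housing differences were between -0.07 (Grm4) and 0.14 (Grm2) in controls and between -0.07 (Grm5) and 0.06 (Grm2) in CBP-ifKOs. The 95% interval was widest for Grm4, from -0.39 to 0.25 in controls, and narrowest for Grm7, from -0.14 to 0.097 in controls and from -0.13 to 0.11 in CBP-ifKOs. The SC and EE values of all 6 receptors overlapped in both genotypes. Among all genes, 4.91% did not overlap with EE lower and 4.2% with EE higher in controls, and 8.17% and 7.69% in CBP-ifKOs.

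**Figure D4:**
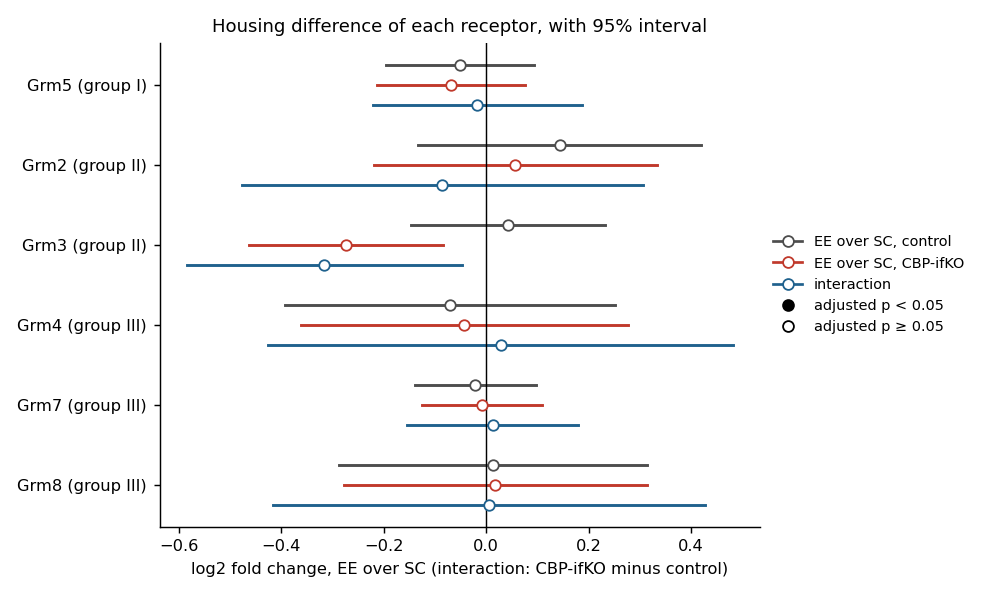
Points are log2 differences of EE from SC for each receptor in control littermates and in CBP-ifKOs, and the interaction (the second minus the first), with 95% intervals from edgeR, and no point is filled because none passed the adjusted p threshold of 0.05. The interaction of Grm3 is at -0.32 with an interval from -0.58 to -0.048, and the interaction intervals of the other receptors include 0.

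Among mice of the same group, some pairs of receptors varied together and others went opposite ways. Of the 15 pairs of receptors, after subtracting each group's mean from the log2 CPM of its mice, Grm2 and Grm4 gave the highest Pearson r, 0.87 (Spearman's rho 0.87, 12 mice), and 0.86 without the 2 mice farthest from the median of Grm2. SC control replicate 1 was highest for both genes, 0.32 and 0.33 above its group mean, and EE control replicate 2 was below its group by 0.20 and 0.33 on the log2 scale. Grm4 and Grm8 gave r = 0.68 (rho 0.69), and Grm5 and Grm7 r = 0.64 (rho 0.62). Grm5 went the other way from Grm4 (r = -0.75, rho -0.75) and from Grm2 (r = -0.69, rho -0.79). Without EE control replicate 2 and SC CBP-ifKO replicate 1, the 2 mice farthest from the median of Grm5, these were -0.55 and -0.57. Negative r was also found for Grm5 with Grm3 (-0.39) and Grm8 (-0.48). Grm7 had negative r with Grm2 (-0.29), Grm3 (-0.39), Grm4 (-0.14) and Grm8 (-0.12). The remaining pairs were between 0.34 (Grm2 and Grm3) and 0.61 (Grm2 and Grm8). The values of a mouse share 1 library and its scaling. The longest annotated transcripts differ in G and C content, 61.7% for Grm4, 56.9% for Grm2, 47.6% for Grm3, 47.2% for Grm7, 42.5% for Grm5 and 41.9% for Grm8, and the part of base composition in these correlations was not tested.

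**Figure D5:**
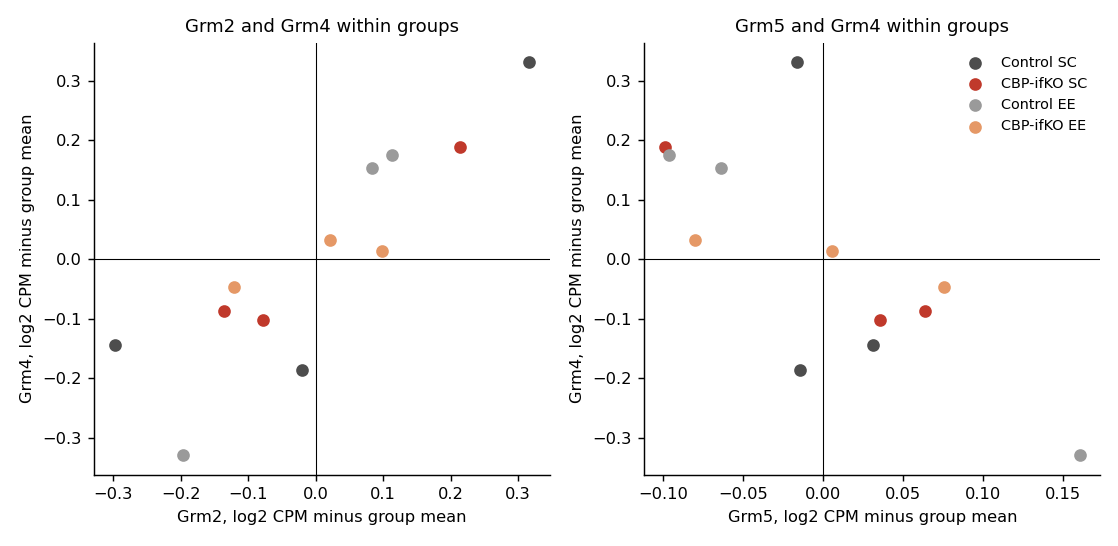
Each point is one of 12 mice, colored by group, placed by its log2 CPM minus the mean of its group for Grm2 and Grm4 (left) and for Grm5 and Grm4 (right). The left points rise together (r = 0.87) and the right points fall (r = -0.75), with EE control replicate 2 at the lower end of Grm4 in both panels.

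Across the 12 mice, group differences included, 15055 genes were ranked by the Pearson correlation of their log2 CPM with each receptor, as a description. The highest were Ddah1 (r = 0.96) and Tspan7 (r = 0.96) for Grm3, Lingo1 (r = 0.96) and Tubb3 (r = 0.94) for Grm2, and Gabra2 (r = 0.95) and Mtpn (r = 0.93) for Grm5. For group III they were Shf (r = 0.94) and Lpcat4 (r = 0.94) for Grm4, Npy2r (r = 0.91) and Nhsl1 (r = 0.91) for Grm7, and Rps16 (r = 0.94) and Zdhhc22 (r = 0.90) for Grm8. The values of a mouse share 1 library, and the 12 mice include both genotypes.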

How the data were processed

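Hippocampal RNA of 12 mice was sequenced in 2 runs per mouse as 50 b single-end reads. Per the labels and the study's methods, the authors used Trim Galore 0.6.4, STAR 2.6.1 with mm10, a mapping quality above 10, and exon counts with Rsubread and an Ensembl GRCm38 annotation, with the runs of a mouse merged. The table deposited by the authors holds unnormalized exon counts and a length for each gene. The columns were assigned to mice by the sample titles.

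Differences were tested with edgeR 4.0.16 under R 4.3.3 (filterByExpr, TMM, quasi-likelihood F test, Benjamini-Hochberg adjustment at 0.05). Genotypes within a housing were compared on its 6 mice, and the remaining contrasts on 12 mice with 1 coefficient per group. The SE is the log2 fold change divided by the square root of F. CPM and RPKM used TMM-scaled totals. Correlations used log2 CPM with a prior count of 2. A floor of 3 counts was 0.0801 to 0.112 CPM, counting error only, and would be higher in CBP-ifKOs if their counts were halved. The scripts were tested on simulated data.

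Alternatives were DESeq2 1.42.0, its size factors, no filter, a filter of 1 CPM in 3 mice, halved and thinned counts, replicate number as a block, fitting 12 or 6 mice, and leaving out each mouse. All receptors and Crebbp were named, with up to 4 called genes of smallest p per list in each genotype comparison, and the 2 genes outside the family most correlated with each receptor. Gnai1, Gnai2, Gnai3, Pick1 and Slc17a7 were named after their values were seen. The receptors and lists were chosen with earlier results of these data known. P-values set a difference between groups against the spread between these mice, which edgeR estimates with information shared across genes. Cage and litter were not in the model. Promoters are from RefSeq and gene positions and transcripts from GENCODE vM21.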

Additional observations from a re-analysis of the deposited data

How the results depend on the processing

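The direction of all 6 receptors was below 0 in each of 282 values of the 3 genotype comparisons under the alternatives. The number of receptors called in SC, 0 by edgeR, was 1 with DESeq2 and 2 without a filter, and in EE, 1 by edgeR, it was 2 with DESeq2, 2 without a filter and 2 with the filter of 1 CPM in 3 mice. Leaving out 1 mouse gave 0 to 1 in SC, 1 to 2 in EE and 1 to 3 averaged over housing. The cause was not tested. In the housing comparisons and the interaction, 0 receptors were called under every alternative.

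Genes called moved by over 1.5 times in EE from 805 to 1296 with DESeq2, 1677 without a filter and 1293 with 12 mice in the fit, and in SC from 968 to 1512 without a filter. Without a filter, 145, 247, 334 and 110 genes were called for housing in controls, in CBP-ifKOs, averaged and the interaction, against 0, 2, 30 and 0. Housing averaged rose to 158 with DESeq2 and 48 with the block, and housing in CBP-ifKOs to 54 with DESeq2, 21 with the 6 mice of the genotype and 17 with the block, and fell from 2 to 0 after halving and to 1 after halving and thinning. Housing in controls gave 15 with DESeq2 and 1 with the 6 mice of the genotype. Leaving out 1 mouse gave 399 to 1908 genes in SC, 285 to 1016 in EE, 0 to 5 for housing in controls, 0 to 10 in CBP-ifKOs and 7 to 42 averaged.

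No receptor was called in housing or interaction, and small differences changed sign: Grm8 was at -0.16 for housing in controls and -0.066 averaged after thinning, and its interaction at -0.0015 after halving, and that of Grm7 at -0.037 after thinning. Leaving out 1 mouse, housing in controls ranged from -0.022 to 0.088 (Grm3), -0.16 to 0.12 (Grm4), -0.045 to 0.0055 (Grm7) and -0.095 to 0.11 (Grm8). In CBP-ifKOs it ranged from -0.011 to 0.17 (Grm2), -0.091 to 0.059 (Grm4), -0.048 to 0.013 (Grm7) and -0.093 to 0.15 (Grm8), and averaged from -0.10 to 0.037 (Grm4) and -0.040 to 0.084 (Grm8). The interaction ranged from -0.066 to 0.068 (Grm5), -0.26 to 0.052 (Grm2), -0.16 to 0.13 (Grm4), -0.026 to 0.040 (Grm7) and -0.11 to 0.14 (Grm8).

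The groups share replicate numbers 1 to 3, but same-numbered mice did not all deviate together: the mean correlation of their deviations was 0.176 between SC and EE controls and between -0.023 and 0.091 for the other pairs of groups. With the replicate number as a block, 1 receptor was called in SC (Grm3, adjusted p = 0.0317), 2 in EE (Grm3 and Grm2, for which adjusted p = 0.0286) and 3 averaged over housing with edgeR, beside 1041, 1089 and 3374 of all genes, and the EE call of Gnao1 was lost (adjusted p = 0.0538).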
